A study of Camellia sinensis with 9 samples.

Results

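Transcripts that were high in roots of the tea plant, Camellia sinensis, and close to absent from its flowers and leaves are described here. They are 64 of the 109879 rows of a table of assembled transcripts. A row was taken when it matched a reference transcript (class code =), was the only such row of its locus, stood at 50 FPKM or more in each root library, and had no flower or leaf value above 1/20 of its root mean. FPKM scales the sequenced fragments of a transcript by its length in kilobases and by the size of the library. Of the 36951 rows with class code =, 26178 were the only such row of their locus. Of these, 963 reached the root minimum, so the 64 are 6.65% of these rows well expressed in root. The other 899 are used below as comparison rows. The 64 were chosen by these same root, flower and leaf FPKM values, so the height in root and the lowness elsewhere are described and not tested. Of all rows tested in the fit described below, 20.7% were called higher in root than in flower and 17.5% higher in root than in leaf; nothing is read from these shares for the 64.

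The samples were roots, flowers and leaves of untreated plants, with 3 libraries of each and 9 in all, made from total RNA after removal of ribosomal RNA. The libraries are called root 13, 23 and 33, flower 1, 2 and 45, and leaf 1, leaf 41 and the unnumbered leaf library, whose column number matches none of the leaf titles. The title leaf 2 is the only leaf title that no column carries. No cultivar, plant age or pooling is given in the sources used here, nor is it said whether the replicates are different plants. The p-values therefore measure spread among libraries, and that spread may be purely technical.

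Roots take up water and mineral nutrients, anchor the plant and meet soil microbes. In tea they are also the main site of synthesis of theanine, an amino acid that is carried up to the young leaves. The table pairs its identifiers with no gene name or description, and 0 of the identifiers of the 64 occurred in the RefSeq gene table of the species, so the transcripts are given by identifier, with no role. For the same reason the labelled tissues were not checked against marker genes. Positions are starts and ends on scaffolds that the table does not name.

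The libraries differed in ways that bear on low values. Summed FPKM over all rows was 865021 or more in each root library, 913083 or more in each flower library and 623826 to 766516 in the leaf libraries. At a transcript length of 1000 nt, 1 fragment was worth 0.0560 to 0.0715 FPKM in root, 0.0559 to 0.0710 in flower and 0.0385 to 0.0435 in leaf. A count of 0 then allows up to 0.168 to 0.213 FPKM in flower and 0.116 to 0.130 FPKM in leaf (3 fragments, counting error only), and more in shorter transcripts.

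Together the 64 transcripts made up 3.57% ± 0.207 of the FPKM of a root library. Their share was 0.0150% ± 0.000972 of a flower library and 0.0156% ± 0.00767 of a leaf library (SD, n = 3 libraries per tissue). In FPKM their sums were 31505, 40595 and 30498 in root 13, 23 and 33. In flower 1, 2 and 45 the sums were 201, 144 and 129, and in leaf 1, the unnumbered leaf library and leaf 41 they were 70.5, 84.3 and 177. Leaf 41 thus held more of these transcripts than either other leaf library. In whole tissue, fewer cells of a type and less RNA per cell cannot be told apart.

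**Figure D1:**
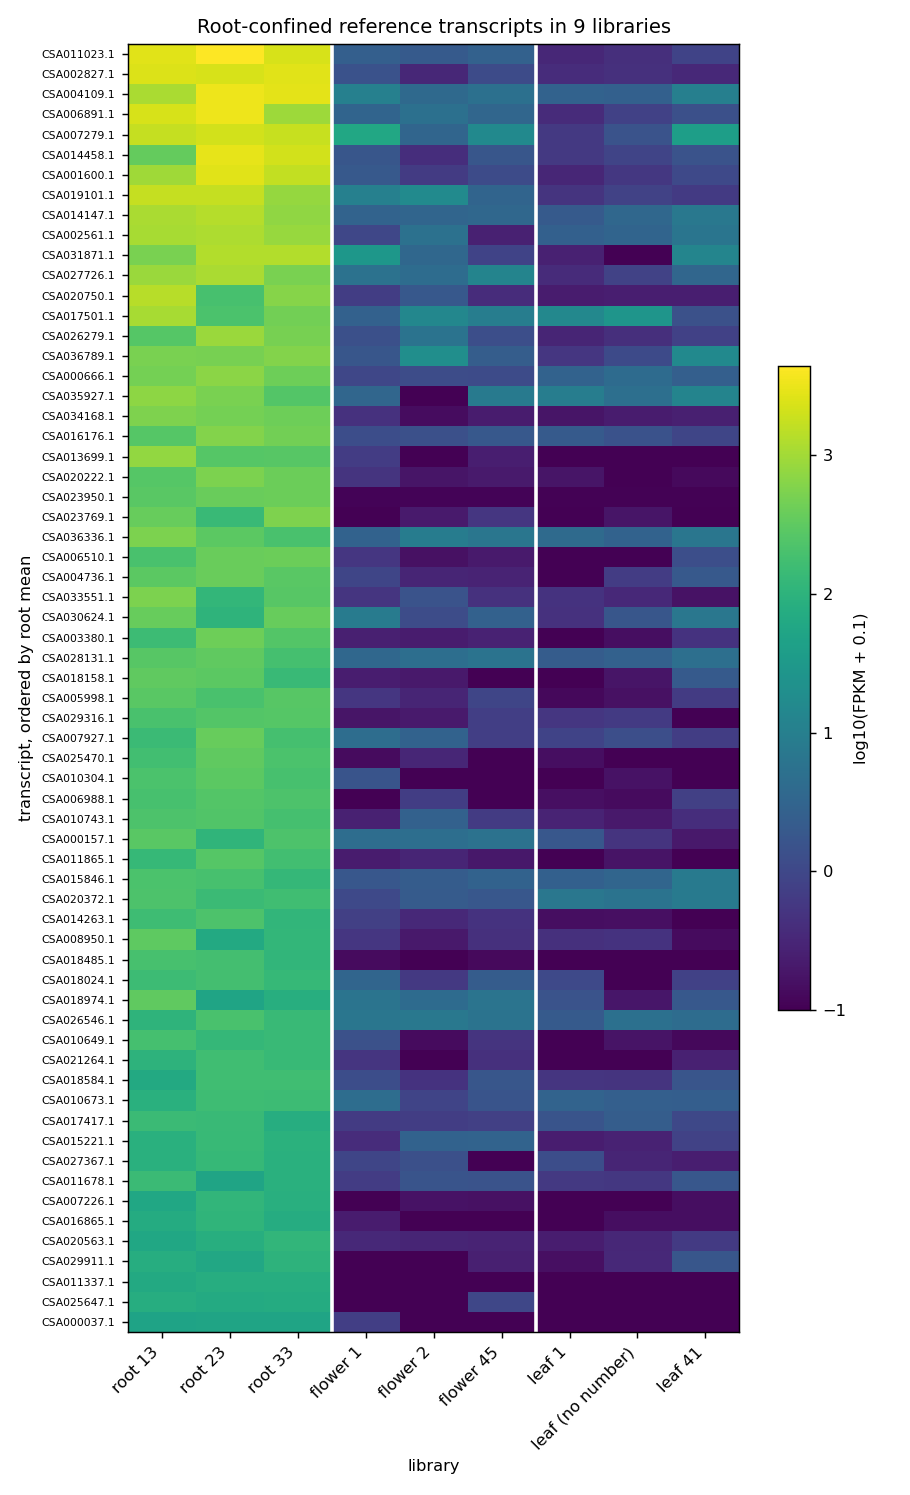
Level of each of the 64 transcripts (rows, ordered by root mean) in the 9 libraries (columns), as log10(FPKM + 0.1) on the colour scale. Every root value is at 50 FPKM or more, and most flower and leaf values are under 1 FPKM (237 of 384).

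Root means ran from 51.1 to 3130 FPKM, with a median of 254 FPKM, against a median of 131 FPKM for the comparison rows. Members were most frequent among the highest rows: 11 of the 39 rows with a root mean over 1000 FPKM were members (28.2%), and 5 of the highest 10 rows. A further 29 members lay between 200 and 1000 FPKM and 24 lay below. The rule sets its limit as a share of the root mean, so a higher root mean makes the limit easier to meet, and nothing is read from these counts.

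The highest was CSA011023.1 (locus MSTRG.12400, positions 409369 to 411143, plus strand). It stood at 2721, 4393 and 2274 FPKM in root 13, 23 and 33. In flower 1, 2 and 45 it had 2.43, 1.94 and 2.66 FPKM, and in leaf 1, the unnumbered leaf library and leaf 41 it had 0.226, 0.327 and 0.755 FPKM. Its root mean of 3130 ± 1117 FPKM (SD, n = 3) was 1176 times its largest flower or leaf value, and it ranked 5 among the 963 rows well expressed in root.

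CSA002827.1 (MSTRG.10178, positions 591900 to 592517, plus strand) followed with 2512, 2259 and 2733 FPKM in root 13, 23 and 33. Its flower values were 1.38, 0.229 and 1.07 FPKM in flower 1, 2 and 45, and its leaf values were 0.296, 0.335 and 0.248 FPKM in leaf 1, the unnumbered library and leaf 41. Of the 4 highest members it varied least among root libraries, with an SD of 9.49% of its mean. CSA004109.1 (MSTRG.47609, positions 14391 to 14813, minus strand) had 1113, 3374 and 2857 FPKM in root 13, 23 and 33. It was less low elsewhere, at 10.3, 3.69 and 5.09 FPKM in flower 1, 2 and 45 and at 2.79, 2.53 and 10.1 FPKM in leaf 1, the unnumbered library and leaf 41. CSA006891.1 (MSTRG.34936, positions 124812 to 126200, minus strand) had 2307, 3367 and 904 FPKM in root 13, 23 and 33, so root 33 stood well under the other root libraries. It reached 5.01 FPKM in flower 2 and 1.25 FPKM in leaf 41, its highest values in flower and leaf.

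The gap between root and the rest was far wider than the rule asks for in most members. The largest flower or leaf value was a median of 0.657% of the root mean. It was above 1/50 of the root mean in 17 members, between 1/50 and 1/100 in 11, between 1/100 and 1/1000 in 26, and at 1/1000 or less in 10. CSA011337.1 (MSTRG.7012, positions 538505 to 539296, plus strand) had 67.0, 76.8 and 77.7 FPKM in root 13, 23 and 33 and was listed at 0 in all 6 flower and leaf libraries. CSA023950.1 (MSTRG.37832, positions 22411 to 26815, minus strand) had 279, 383 and 399 FPKM in those root libraries. Its highest flower value was 0.0131 FPKM and its highest leaf value 0.00682 FPKM. Its flower maximum was the smallest share of the root mean (0.00370%) among members with any value above 0 there. That share rests on how fragments were divided between the rows of its locus: a splice variant at the same positions, MSTRG.37832.1, had 0.585 FPKM in flower 1 and 0.536 FPKM in leaf 41, and the locus as a whole was at 0.122%.

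**Figure D2:**
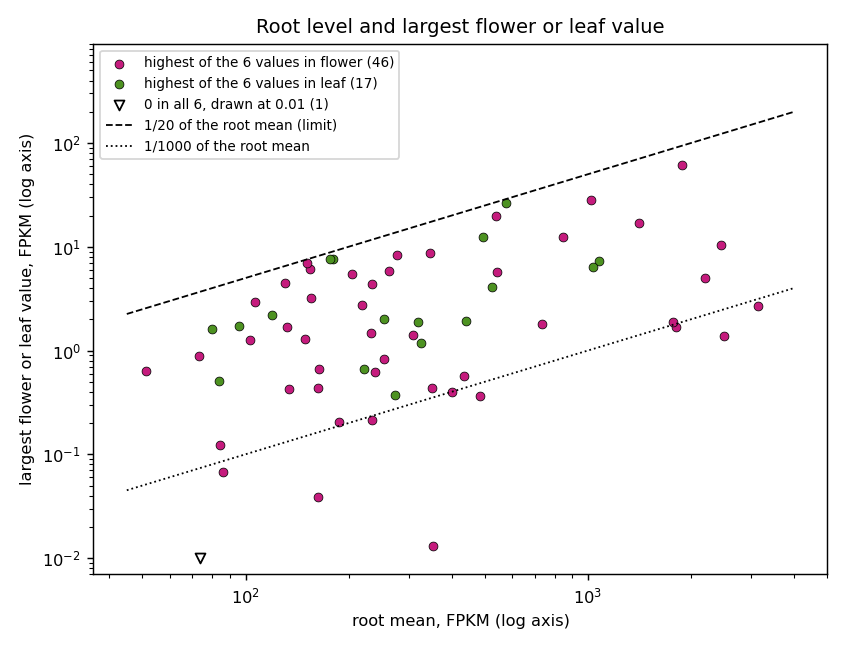
Root mean (horizontal, log axis, FPKM) against the largest of the 6 flower and leaf values (vertical, log axis, FPKM) for the 64 transcripts, coloured by the tissue that holds that value. The dashed line is the limit of 1/20 of the root mean and the dotted line is 1/1000; the largest value lay in flower in 46 members and in leaf in 17, and 1 member was at 0 in all 6 (triangle, drawn at 0.01 FPKM).

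The limits cut through a continuous range. Just inside the ratio limit were CSA026546.1 (MSTRG.47941), with a root mean of 152 FPKM and a largest other value at 4.62% of it, and CSA017501.1 (MSTRG.8298), with 575 FPKM and 26.4 FPKM, or 4.60%. Just outside were CSA023241.1 (MSTRG.53484), with a root mean of 107 FPKM and a largest other value of 5.40 FPKM (5.04%), and CSA015173.1 (MSTRG.28482), with 598 FPKM and 30.3 FPKM (5.07%). At the root minimum, CSA000037.1 (MSTRG.5710) was just inside with a lowest root value of 50.1 FPKM and CSA018974.1 (MSTRG.26805) with 52.2 FPKM. CSA028287.1 (MSTRG.48861) and CSA013946.1 (MSTRG.45751) were just outside, with lowest root values of 47.9 and 47.5 FPKM. The rule applied in the same way to the other tissues found 165 of 1003 rows in flower (16.5%) and 33 of 519 rows in leaf (6.36%), so the share in root was nearer to that in leaf than to that in flower.

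The fragments behind the low values could be read for some members. FPKM values of unspliced transcripts lie on steps of 1 fragment, and 14 members had flower and leaf values on whole numbers of fragments (within 0.05) when their full span was taken as their length. These members spanned 492 to 1548 nt, and 48 members were suited to this reading by having 1 row in their locus and a span of at least 400 nt. The reading also needed at least 3 flower or leaf values above 0 and of 10 fragments or fewer. In CSA002827.1 the flower values rested on 10, 2 and 10 fragments and the leaf values on 4, 4 and 3. Its root values rested on about 23500, 16600 and 23800 fragments in root 13, 23 and 33. CSA007226.1 (MSTRG.16830), picked after its values were seen, had about 925, 1420 and 1210 fragments in root 13, 23 and 33. It had 0, 1 and 1 fragment in flower 1, 2 and 45, and in leaf 1 and the unnumbered library 0, with 1 in leaf 41. Most values this low cannot be told from one another or from 0: 3 fragments of CSA007226.1 are worth 0.191 to 0.243 FPKM in flower and 0.132 to 0.149 FPKM in leaf. CSA018158.1 (MSTRG.46871), picked after its values were seen, shows the opposite case, with 25 fragments in leaf 41 against 0 in leaf 1 and 1 in the unnumbered library. Over the 14 members, no flower or leaf value rested on more than 77 fragments and no root value on fewer than about 925.

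Which of flower and leaf held the remaining RNA was not used by the rule, and it was tested with limma on log2(FPKM + 1) over the 55806 rows that reached 1 FPKM in at least 3 libraries. A transcript was called when its adjusted p was under 0.05 and its difference at least 1 on that scale. Root values alone carried all 64 members through the filter. In flower and leaf, 28 of them had 1 FPKM or more in at least 3 of the 6 libraries. Of the 64, 5 were called higher in flower (7.81%, against 17.3% of all rows tested) and 2 lower in flower (3.13%, against 14% of all rows tested). At an unadjusted p under 0.05 there were 10, against 43.1% of all rows. These shares say little about the 64, because 36 of them had 1 FPKM or more in fewer than 3 of the 6 flower and leaf libraries. Those 36 passed the filter through root only. All 7 calls lay among the other 28. The remaining 57 were not called, which does not show that their levels are alike. Differences between values under 1 FPKM shrink on this scale. The fit also shares 1 estimate of spread over all 9 libraries, so scatter among root libraries can widen the SE of flower minus leaf. CSA018974.1, picked here after its values were seen, was not called (difference 1.70 ± 0.64, SE, adjusted p = 0.0706, limma). It had 328, 52.2 and 81.7 FPKM in root 13, 23 and 33. With flower and leaf libraries alone, where 28 members were fitted, 6 were called higher in flower and 2 lower.

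Flower means lay above leaf means in 47 of the 64 members and below them in 16, and the median difference, flower minus leaf, was 0.22 on the log2(FPKM + 1) scale. Over all rows tested it was -0.02, with the flower mean above the leaf mean in 49.1%. When the FPKM of all libraries were set to the same sum, flower was above leaf in 35 members and below in 28, and in 37.8% of all rows. The median difference was then 0.05 in members and -0.35 over all rows. This scaling lowered flower against leaf in members and in all rows. Because 36 of the 64 passed the filter through root only, the direction of their difference can rest on values near 0. Nothing is therefore read from the members' counts and medians set beside those of all rows. Flower and leaf libraries did not overlap in 13 members with flower higher (20.3%, against 23.9% of all rows tested) and in 3 with leaf higher (4.69%, against 22.3%). Of these, 8 and 2 were among the 28 members that reached 1 FPKM in at least 3 flower and leaf libraries, and the others had values too low for the shares to be compared with all rows.

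CSA019101.1 (MSTRG.22781, positions 78018 to 80530, minus strand) had the largest excess in flower. It stood at 10.5, 16.8 and 3.08 FPKM in flower 1, 2 and 45 and at 0.394, 0.712 and 0.528 FPKM in leaf 1, the unnumbered library and leaf 41, while root had 1719, 1697 and 825 FPKM. No flower library reached down to a leaf library, and the difference was 2.61 ± 0.52 on the log2(FPKM + 1) scale (SE, adjusted p = 0.00430, limma). CSA027726.1 (MSTRG.48371, positions 913 to 2401, plus strand) had 5.64, 4.36 and 12.4 FPKM in flower and 0.275, 0.708 and 3.28 FPKM in leaf, in the same order of libraries. Leaf 41 was close to the lowest flower library, and the difference of 1.89 ± 0.53 (SE, adjusted p = 0.0223, limma) was no longer called without flower 1 (adjusted p = 0.0521), flower 45 (0.0832), leaf 1 (0.0815) or the unnumbered leaf library (0.0733).

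The other 3 called higher in flower were CSA000157.1 (MSTRG.53047), CSA006891.1 and CSA011023.1. CSA000157.1, named because the calls were few, averaged 4.87 ± 0.582 FPKM in flower and 0.751 ± 0.872 FPKM in leaf (SD, n = 3 each). Its difference was 1.85 ± 0.43 (SE, adjusted p = 0.00919, limma). CSA011023.1, the highest member in root, averaged 2.35 ± 0.368 FPKM in flower and 0.436 ± 0.281 FPKM in leaf (SD, n = 3 each), a difference of 1.23 ± 0.30 (SE, adjusted p = 0.0120, limma). The call of CSA011023.1 was lost with equal library sums (difference 0.99) and with a pseudocount of 5 (adjusted p = 0.260, limma). CSA006891.1 averaged 3.78 ± 1.06 FPKM in flower and 0.739 ± 0.485 FPKM in leaf (SD, n = 3 each). Its difference of 1.47 ± 0.47 (SE, adjusted p = 0.0368, limma) was not called without flower 1 (adjusted p = 0.0747), flower 2 (0.103), flower 45 (0.0749), leaf 1 (0.118) or the unnumbered leaf library (0.0867). It was also not called with no filter or with equal sums, and the same held for CSA027726.1.

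In the opposite direction, CSA020372.1 (MSTRG.116, positions 1897133 to 1898351, minus strand) had 0.970, 2.08 and 1.73 FPKM in flower 1, 2 and 45 against 6.71, 5.65 and 7.65 FPKM in leaf 1, the unnumbered library and leaf 41. The groups did not overlap and the difference was -1.58 ± 0.28 (SE, adjusted p = 0.00236, limma). It was called with each library left out in turn. CSA000666.1 (MSTRG.16583, positions 225865 to 226934, plus strand) averaged 1.01 ± 0.125 FPKM in flower and 3.10 ± 0.868 FPKM in leaf (SD, n = 3 each), a difference of -1.01 ± 0.28 (SE, adjusted p = 0.0207, limma). With a pseudocount of 5, CSA019101.1 alone of the 7 was still called. In limma the call of CSA000666.1 was also lost without flower 1 (adjusted p = 0.0679), flower 45 (0.0533) or the unnumbered leaf library (0.0772).

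**Figure D3:**
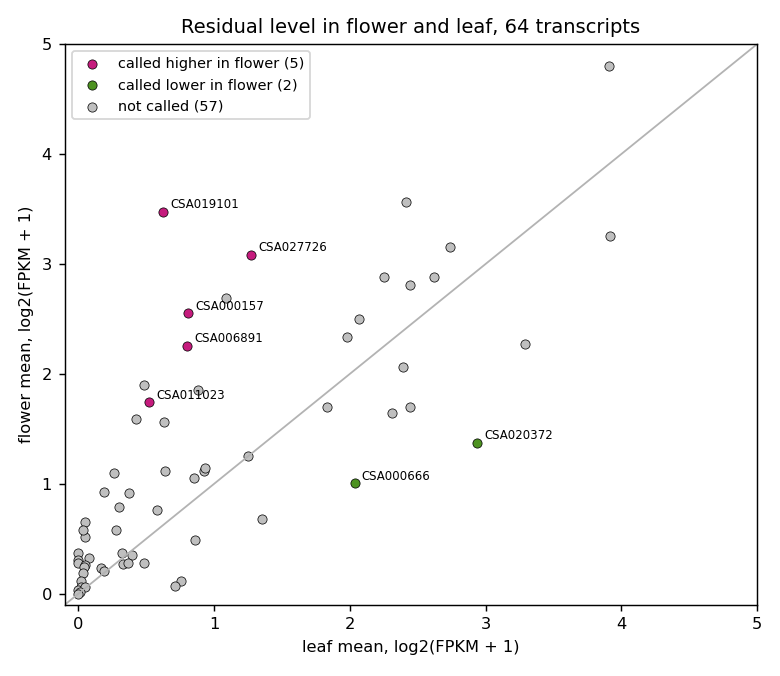
Leaf mean (horizontal) against flower mean (vertical) of the 64 transcripts, both as log2(FPKM + 1), with the line of equal means. The 5 transcripts called higher in flower lie above the line and the 2 called lower lie below it; 57 were not called.

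Some of the highest flower and leaf values stood in 1 or 2 libraries and not across a tissue. The examples were chosen after their values were seen. CSA007279.1 (MSTRG.28123) had the largest value outside root, with 61.2, 3.22 and 16.0 FPKM in flower 1, 2 and 45 and 0.502, 1.44 and 40.2 FPKM in leaf 1, the unnumbered library and leaf 41, where root had 1705, 2122 and 1810 FPKM. CSA031871.1 (MSTRG.4102) had 28.2, 3.48 and 0.754 FPKM in flower and 0.172, 0 and 12.8 FPKM in leaf, in the same order of libraries. Both were high in flower 1 and leaf 41 and low in the other leaf libraries. In CSA036789.1 (MSTRG.47665) flower 2, at 19.7 FPKM, and leaf 41, at 15.6 FPKM, stood above the other flower and leaf libraries, which were at 2.24 FPKM or less.

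Leaf 41 was the highest leaf library in 34 of the 61 members with a leaf value above 0 (55.7%), against 40.2% of the rows tested with a leaf value above 0. It held the largest of the 6 flower and leaf values in 13 members, where leaf 1 did so in 1 and the unnumbered library in 3. Without CSA007279.1 the members' sum in leaf 41 was 137 FPKM, against 70.0 in leaf 1 and 82.9 in the unnumbered library. Without leaf 41 the rule found 88 transcripts. The 64 had to be among them, since leaving out a flower or leaf library can only ease the ratio limit.

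Root libraries themselves differed more in members than in comparison rows. The SD among the 3 root libraries was a median of 32.4% of the mean in members (interquartile range 21.9% to 48.2%), against 20.3% in comparison rows (13.5% to 30.2%). The highest root value was more than 2 times the lowest in 26 members (40.6%) and in 17.9% of comparison rows. It was more than 3 times the lowest in 11 members (17.2%) and in 4.12% of comparison rows. The gap was also present among highly expressed rows: 32 members at or above the members' median root mean had a median SD of 38.6% of the mean, and the 188 comparison rows at or above that level one of 24.8%. Root 23 was the highest library in 32 of the 64 members, in 72.0% of comparison rows and in 37.0% of all rows tested with a root value above 0. It was the lowest in 17 members (26.6%) and in 8.68% of comparison rows. Summed FPKM over all rows was also highest in root 23 (1.09e+06, against 865021 in root 13 and 913810 in root 33). How far these shares follow from that was not tested. These shares are descriptions, since the 2 sets were parted by flower and leaf values of the same table.

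By SD over mean, the members with the widest spread fell on the same side. CSA020750.1 (MSTRG.3803) had 1381, 199 and 619 FPKM in root 13, 23 and 33, and CSA018974.1 had 328, 52.2 and 81.7 FPKM. Root 13 was far above root 23 in both. The same held for CSA008950.1 and CSA017501.1, next in SD over mean at 77.7% and 77.5%. CSA014458.1 (MSTRG.26157), picked after its values were seen, ran the other way with 348, 2934 and 2154 FPKM, so root 13 was the low library and root 23 exceeded it by 8.42 times. Of the 11 members with more than a 3-fold range, root 23 was lowest in 7, root 13 in 3 and root 33 in 1. At the steady end, CSA000037.1 had 50.1, 51.1 and 52.0 FPKM and CSA025647.1 (MSTRG.40463) had 79.6, 69.0 and 70.7 FPKM. The labels give the 3 root libraries no difference other than their number.

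**Figure D4:**
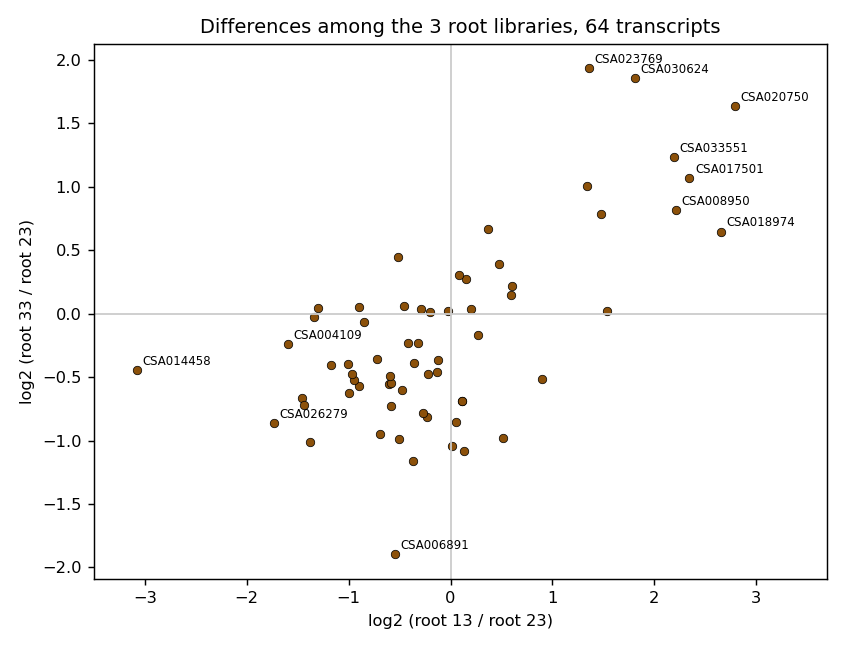
Each point is 1 of the 64 transcripts, placed by log2 of root 13 over root 23 (horizontal) and of root 33 over root 23 (vertical); a transcript equal in all 3 libraries would lie at 0 on both axes. The 11 transcripts with more than a 3-fold range are named, and 7 of them lie to the upper right, where root 23 is lowest.

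Members had shorter spans than comparison rows. They covered a median of 1400.5 nt on the scaffold, introns included (interquartile range 785 to 2107 nt), against 2816 nt (1090 to 4844 nt). The strands were even, with 33 on plus and 31 on minus. The assembly held 1 row only for 51 member loci (79.7%), against 64.5% of comparison rows. No members had adjacent locus numbers (0 pairs).

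The other 13 member loci held 32 further rows, which the rule did not use. All but 1 of them overlapped the reference row in position, and how fragments were divided between overlapping rows is not known. They were 15 splice variants (code j), 15 rows with other overlap on the same strand (code o), 1 row between genes (u) and 1 row that holds a reference transcript inside an intron (y). Of the 16 with a root mean of at least 10 FPKM, 11 were also within 1/20 and 5 were not. The reference row led in root in 8 of the 13 loci. In MSTRG.28921 the splice variant led: it had 1254, 1794 and 1191 FPKM in root 13, 23 and 33, where the reference row CSA016176.1 had 266, 599 and 454 FPKM. The variant had 11.7, 19.8 and 17.6 FPKM in flower 1, 2 and 45 and 5.09 to 6.75 FPKM in leaf. In MSTRG.9224 the reference row CSA010304.1 held 19.9% of the root level of its locus, and in MSTRG.6155 CSA014147.1 held 41.1%. These loci were chosen after their values were seen.

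Summed over all rows, 62 of the 64 loci stayed within 1/20 of their root mean and 2 did not. One was MSTRG.40463, the locus of CSA025647.1. Its reference row was at most 0.883 FPKM outside root, but a splice variant (MSTRG.40463.2) with 142, 94.4 and 96.9 FPKM in root 13, 23 and 33 had 16.4, 29.4 and 16.1 FPKM in flower 1, 2 and 45 and 5.17, 19.5 and 1.64e-08 FPKM in leaf 1, the unnumbered library and leaf 41. A further variant (MSTRG.40463.4) was at 0.291 FPKM or less in root and reached 11.2 FPKM in leaf 1 and 11.8 FPKM in leaf 41. The largest flower or leaf value of the locus was 19.7% of its root mean, so the limit was met by the reference row and not by the locus. The other was MSTRG.5253, the locus of CSA018024.1, at 10.4%. Its variant MSTRG.5253.1 had 47.0, 50.6 and 39.4 FPKM in root 13, 23 and 33, with 6.10 FPKM in flower 2, 13.7 FPKM in flower 45 and 11.2 FPKM in leaf 41; flower 1 was higher than these. The locus with the most rows, MSTRG.30920 (15 rows), stayed at 0.926% as a whole. Its reference row CSA029316.1 had 206, 253 and 260 FPKM in root 13, 23 and 33 and held 48.3% of the root level of the locus.

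Antisense transcripts, made from the strand opposite a gene, can overlap it and in some known cases affect its expression. Assembled loci coded as antisense (x), within 2 locus numbers of a member and overlapping it on the opposite strand, were found for 9 of the 64 members (14.1%) and for 5.67% of comparison rows. There were 10 such loci for members, and all 10 had a root mean of at least 1 FPKM and no flower or leaf value above 1/20 of it. In 8 of them every root library was at 1 FPKM or more; MSTRG.9225, opposite CSA010304.1, reached the mean through root 23 alone (96.9 FPKM) and MSTRG.28124, opposite CSA007279.1, through root 13 alone (3.56 FPKM). For comparison rows 39 of 52 such loci reached 1 FPKM in root and 4 were within the limit. The scaffold is not named, so the overlap rests on neighbouring numbers and positions. Strand use in the counting is not given in the sources used here, so reads of a member and of its opposite partner may not have been told apart.

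CSA011023.1, the highest member, had 2 such partners on the minus strand. MSTRG.12399 (positions 348763 to 409504) had 857, 1484 and 472 FPKM in root 13, 23 and 33 and overlapped the reference row by 136 nt. It was at 1.01, 0 and 0.767 FPKM in flower 1, 2 and 45 and at 0 in all leaf libraries. MSTRG.12401 (positions 350219 to 410579) had 502, 287 and 162 FPKM in root and at most 1.02 FPKM elsewhere. Its order of root libraries, with root 13 highest, was not that of CSA011023.1, where root 23 was highest.

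MSTRG.26806, opposite CSA018974.1, followed its partner closely, with 262, 37.4 and 66.9 FPKM in root 13, 23 and 33 against 328, 52.2 and 81.7 FPKM for the reference row. In leaf 1, the unnumbered library and leaf 41, MSTRG.26806 had 1.36, 0.0625 and 0.883 FPKM and CSA018974.1 had 1.46, 0.0891 and 1.83 FPKM. The unnumbered library was the lowest for both. MSTRG.3802, opposite CSA020750.1, had 49.7, 3.08 and 14.6 FPKM in root 13, 23 and 33 and 0 elsewhere, with the same order of root libraries as its partner. MSTRG.48372, opposite CSA027726.1, was uneven, with 2.55, 171 and 97.6 FPKM, where its partner had 884, 1143 and 512 FPKM.

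**Figure D5:**
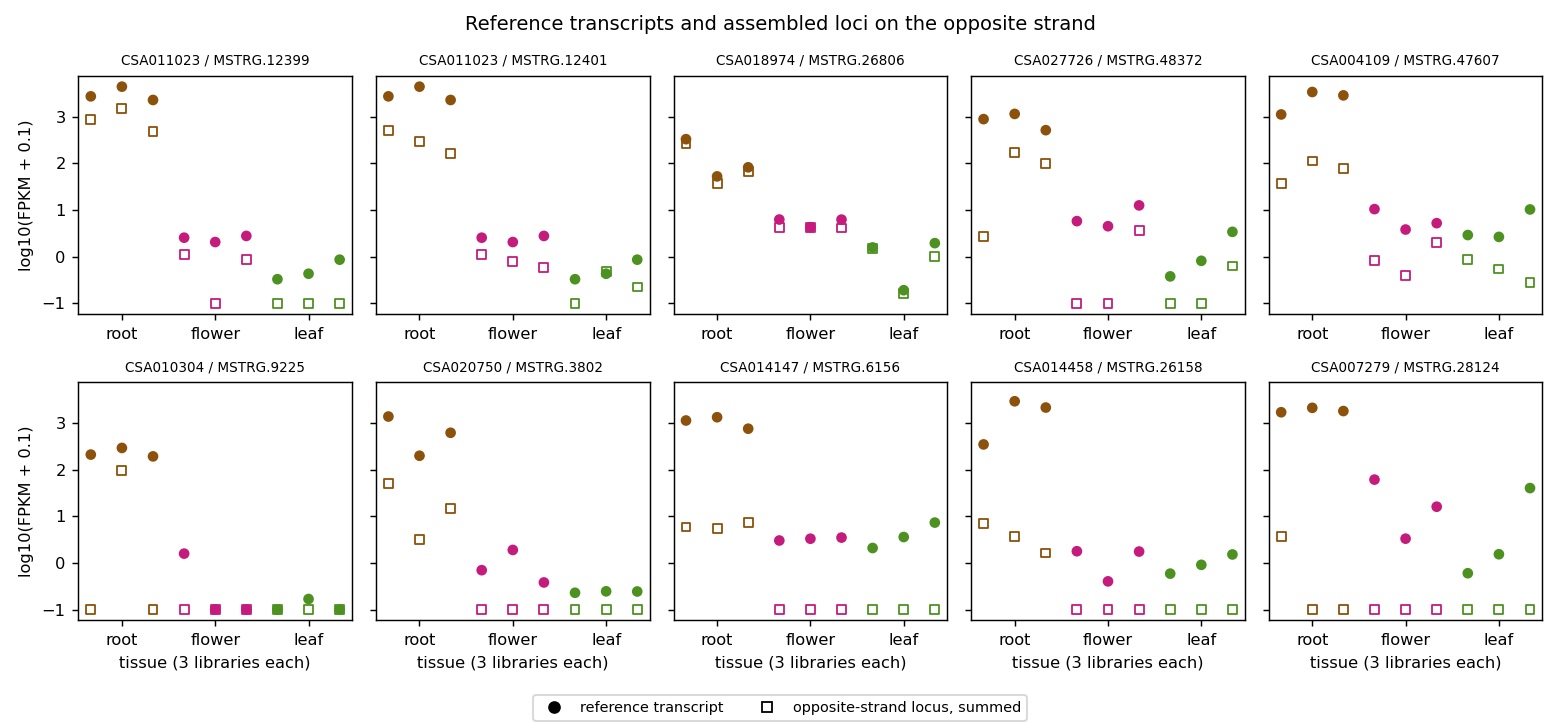
Each panel gives 1 reference transcript (filled circles) and 1 assembled locus on the opposite strand (open squares, summed over its rows) in 3 root, 3 flower and 3 leaf libraries, left to right, as log10(FPKM + 0.1). Both are high in root and low in flower and leaf in the panels of CSA011023 and CSA018974, and the partners of CSA014147, CSA014458 and CSA007279 stay under 10 FPKM in root.

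Some loci numbered next to a member were also high in root and low elsewhere. A locus with an adjacent number, a root mean of at least 1 FPKM and no flower or leaf value above 1/20 of it was present for 13 of the 64 members (20.3%) and for 6.12% of comparison rows. Of all 61592 loci, 2.48% meet these limits themselves. That is a share of single loci and not of loci with such a neighbour, which can lie on either side, so it is not a like measure. An adjacent number does not show that both lie on 1 scaffold: for CSA006510.1 and CSA010743.1 the neighbour has the lower number but the higher position. Without neighbours placed against the order of their numbers, a step added after seeing the data, the counts were 11 members (17.2%) and 5.01% of comparison rows. In 8 of the 13 members such a neighbour was one of the antisense loci above, and in 5 it was of other kinds only. Next in number to CSA004109.1 was a locus on the same strand whose ends enclose it. That locus, MSTRG.47608 (code y, positions 14073 to 19658, minus strand), had 462, 1356 and 1225 FPKM in root 13, 23 and 33, in the same order as the 1113, 3374 and 2857 FPKM of CSA004109.1. CSA000037.1 had a reference transcript as its neighbour: MSTRG.5711 (positions 578817 to 579749, minus strand) averaged 27.3 FPKM in root and reached 0.465 FPKM at most in flower and leaf.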

How the data were processed

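Total RNA of untreated tea plant roots, flowers and leaves (3 libraries each) was extracted with TRIzol and depleted of ribosomal RNA, per the labels' protocols. The authors deposited 1 table of FPKM values per assembled transcript, with class code, locus, strand and positions. HISAT2, StringTie and Cuffnorm are named in the submitters' processing notes; no version, build or strand setting is known from these sources.

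The members were found by the rule in a script, and the members and comparison rows were chosen with earlier results of these data known. Flower was compared with leaf by limma 3.58.1 (R 4.3.3) with a mean-variance trend on log2(FPKM + 1), over 9 libraries with 6 residual degrees of freedom. The fit kept the 55806 rows with 1 FPKM or more in at least 3 libraries, and p-values were adjusted by Benjamini-Hochberg over all of them. A call needed an adjusted p under 0.05 and a difference of at least 1.

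Named transcripts are those with the highest root mean, the smallest ratio to root, the values nearest each limit, the largest and smallest root spread, the most rows in their locus, and the 2 largest non-overlapping calls between flower and leaf in each direction. The remaining call, CSA000157.1, and all other transcripts named in the text were picked after their values were seen. The worth of 1 fragment was read from the steps of low FPKM values. All 1498 to 2012 values used per library were whole within 0.05 fragments. The steps were read from these same values, so this is no separate check of the reading. Intervals of counting were not computed, and limits at 0 use 3 fragments and cover counting error only. Alternatives were other rule limits, locus sums, equal library sums, other pseudocounts and filters, array weights, flower and leaf libraries alone, and each library left out in turn.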

Additional observations from a re-analysis of the deposited data

How the results depend on the processing

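The rule found 103 transcripts with a ratio limit of 1/10 and 102 with a root minimum of 20 FPKM. Looser limits keep all 64 by construction. Tighter limits kept 51 of the 64 at a ratio of 1/40 and 49 at a root minimum of 100 FPKM. Locus sums gave 94 transcripts, 62 of the 64 among them. Leaving out 1 library at a time gave 65 to 88, the most without leaf 41. Leaving out a flower or leaf library cannot lose a member. Without root 13, 62 of the 64 were kept, without root 23, 63, and without root 33, all 64. Equal library sums kept 58 of the 64. In flower minus leaf, transcripts called higher in flower numbered 5; they were 1 with a pseudocount of 5, 3 with no filter, 2 with equal sums and 8 with array weights, and 3 to 6 with 1 library left out (3 without flower 45, leaf 1 or the unnumbered leaf library). Those called lower in flower numbered 2; they were 0 by limma with a pseudocount of 5 (1 at an unadjusted p under 0.05) and 1 to 3 with 1 library left out (1 without flower 1, flower 45 or the unnumbered leaf library). The cause of these shifts was not tested. No direction of a called transcript turned under any alternative run. Leaving out a root library took members under the filter, and 43 remained in those fits, as did 28 in the fit of flower and leaf alone. No paired analysis was possible because just 1 replicate number occurs among both flower and leaf columns. In the 14 members whose fragments could be read, flower and leaf values rested on 0 to 77 fragments. That range is set in part by the reading, which needed low values. Differences of a few fragments were not detectable at this depth.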
